A study of Homo sapiens with 2 samples.

Results

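The levels of 10 Krüppel-like factor (KLF) genes are described in breast cancer cells exposed to cisplatin, with and without a knockout of FZR1, as measured by RNAseq. KLF2, KLF3, KLF4, KLF5, KLF6, KLF7, KLF9, KLF10, KLF11 and KLF13 were taken by Entrez gene ID from a list of names. The rule sets no threshold on their levels, but the list was drawn up with earlier results of these data known. All 10 were found among the 23033 genes with a value. Of these 10, 9 had at least 1 FPKM (fragments normalised for transcript length and sequencing depth) in at least 1 library, as did 13554 genes in all, and KLF9 did not. Each condition had 1 library. Differences therefore have no replicate check, and neither tests nor p-values are given. Control cells carry the genotype label WT and FZR1 ko cells are a knockout made with CRISPR/Cas9 and grown from a single cell, so the knockout is 1 clone. Both libraries are labelled T-47D and both were exposed to cisplatin, a platinum drug that crosslinks DNA, at 2 µg/ml. Cells without the drug were not analysed here.

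KLF proteins are transcription factors that bind GC-rich and CACCC sequences through a row of zinc fingers at the C-terminal end, which they share with the SP factors. The N-terminal parts differ and set the partners. KLF3, with KLF8 and KLF12, recruits the corepressor CtBP. KLF2, KLF4, KLF5, KLF6 and KLF7 have activation domains and bind acetyltransferases, and KLF9, KLF10, KLF11 and KLF13 bind the corepressor SIN3A. Several KLF genes, KLF2, KLF4, KLF6 and KLF10 among them, are known to be induced rapidly and for a short time by growth factors, TGF-beta or stress. In breast and other epithelia KLF5 is linked to proliferation, while KLF4 and KLF6 are linked to growth arrest through CDKN1A, the gene of p21.

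The depth of the libraries is unknown because FPKM hides the read numbers, and the values summed to 502589 FPKM in control against 500488 in FZR1 ko. FZR1 itself, the activator of the anaphase-promoting complex that was knocked out, had 12.3 FPKM in control against 10.1 in FZR1 ko. A frameshift at the Cas9 cut need not remove the transcript, so this level does not check the label. Of 10 luminal markers, 5 were under 1 FPKM in both libraries (ESR1, PGR, GATA3, CDH1 and KRT19), which goes against a luminal line such as T-47D. The other 5 were expressed, with KRT8 at 829 and 998 FPKM, KRT18 at 552 and 740 FPKM, TFF1 at 9.80 and 7.52 FPKM, FOXA1 at 5.07 and 4.65 FPKM and EPCAM at 3.90 and 11.5 FPKM. The summed level of 10 mesenchymal and basal markers was 336 FPKM in control against 326 in FZR1 ko, nearly all of it from VIM. Endothelial cells are known to express KLF2 and KLF4, and lymphocytes KLF2. The summed level of 5 endothelial markers was 4.02 FPKM in control against 0.71 in FZR1 ko, most of it from CDH5 (3.64 and 0.33 FPKM), with TEK listed at 0 in both libraries and VWF in control. The summed level of 5 immune markers was 8.25 and 3.87 FPKM, most of it from LYZ (5.97 and 3.34 FPKM), with CD3E listed at 0 and PTPRC under 0.1 FPKM. That of 5 fibroblast markers was 5.78 and 7.96 FPKM, from COL1A1 (5.13 and 6.25 FPKM) and PDGFRB (0.44 and 1.58 FPKM) for the most part, with COL1A2 and PDGFRA listed at 0. The part of such RNA in the results was not tested. In bulk RNA, fewer cells that express a gene and less RNA per cell cannot be told apart.

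In FZR1 ko cells 7 of the 9 KLF genes kept had a lower level than in control, and 2 had a higher level. Of all 13554 genes kept, 6812 were lower and 6726 higher. Of the lower KLF genes, 6 had FZR1 ko to control ratios from 0.394 to 0.539 (KLF2, KLF3, KLF4, KLF6, KLF10 and KLF11), and KLF5 was close to its control level. KLF7 and KLF13 were slightly higher. Differences are log2 ratios of FPKM + 1, FZR1 ko over control, a scale that understates differences of low genes. On this scale KLF6 (-1.14) and KLF10 (-1.05) were at least 2-fold lower, KLF11 (-0.99) lay just short of the threshold, and none was at least 2-fold higher. Over all genes kept, 6.72% were at least 2-fold lower and 6.78% were at least 2-fold higher. With a 1.5-fold threshold, chosen after the values were seen, 6 of the 9 KLF genes were lower and 0 were higher, where 17.6% of all genes were lower and 18.0% were higher. The median log2 ratio was -0.86 for the 9 KLF genes and -0.0048 for all genes. Without a pseudocount, and with at least 1 FPKM in both libraries, KLF2 and KLF11 also passed the 2-fold threshold. Under this setting 872 of 12081 genes were at least 2-fold lower and 979 at least 2-fold higher.

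**Figure D1:**
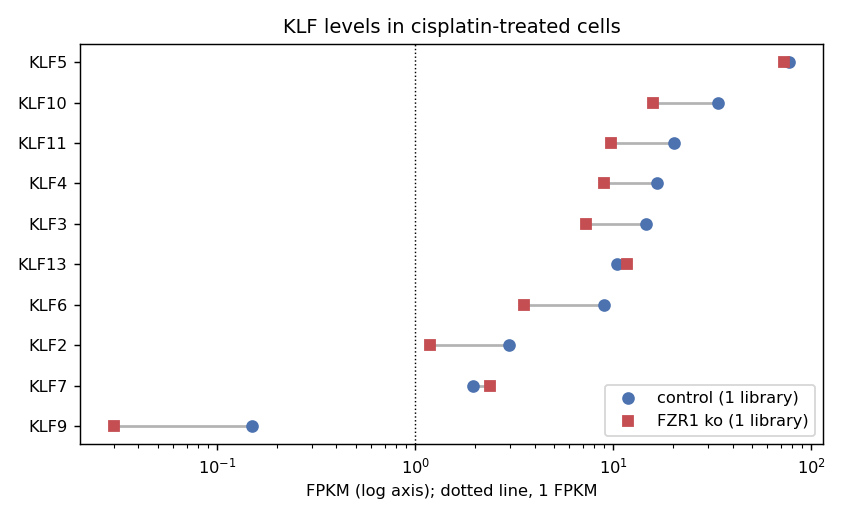
FPKM of each KLF gene on a log axis, with control as circles and FZR1 ko as squares, 1 library each, and a dotted line at 1 FPKM. KLF2, KLF3, KLF4, KLF6, KLF10 and KLF11 show gaps towards lower FZR1 ko values, narrowest for KLF4 (ratio 0.539) and widest for KLF6 (0.394). KLF5 (77.4 and 72.9 FPKM) hardly moves, and KLF9 lies under 1 FPKM in both libraries.

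**Figure D2:**
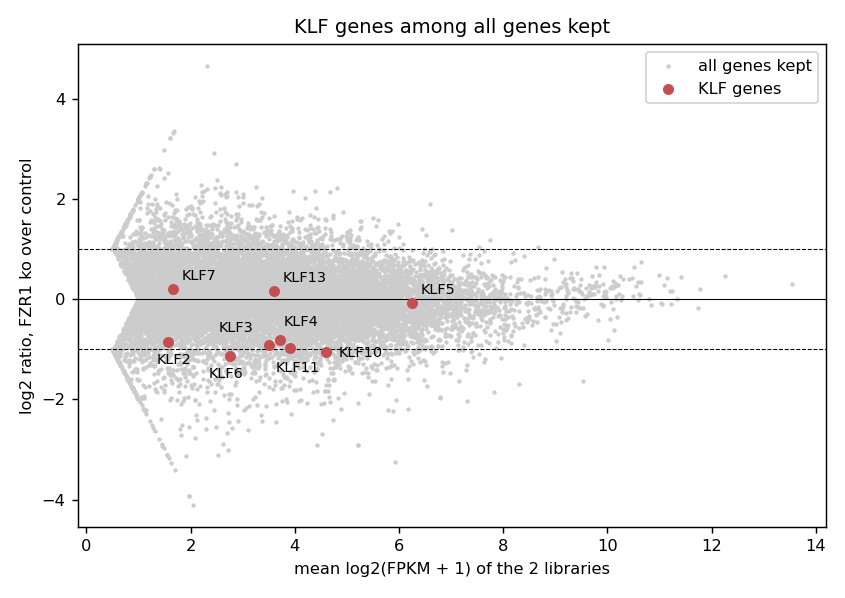
Log2 ratio of FZR1 ko over control (vertical) against the mean log2(FPKM + 1) of the 2 libraries (horizontal) for the 13554 genes kept in grey and the 9 KLF genes in red, with dashed lines at a 2-fold difference. The group of 6 lower KLF genes lies between -1.14 and -0.82, near the lower dashed line, at low and middle levels of expression.

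KLF3, a repressor that works through CtBP and is known from blood and fat cells, is the member of that class in the list (Entrez gene 51274, chromosome 4 from 38664199 to 38701517 in GRCh38). KLF3 had 14.6 FPKM in control against 7.31 in FZR1 ko. The ratio of these values without a pseudocount was 0.500, and the rounding of the deposited values allows 0.500 to 0.501, so KLF3 lies on the 2-fold line and its log2 ratio with the pseudocount was -0.91. The antisense gene KLF3-AS1 overlaps KLF3 over 695 bases and had 1.58 FPKM in control against 1.09 in FZR1 ko. Whether the library kept the strand is not given in the sources used here, so reads in the overlap are uncertain, although KLF3-AS1 was the lower gene in both libraries. The related KLF12 and KLF8 were under 1 FPKM. KLF12 had 0.08 FPKM in control against 0.81 in FZR1 ko, against the direction of KLF3, and KLF8 had 0.29 and 0.19 FPKM.

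KLF10, also called TIEG1, is an early gene of TGF-beta signalling that restrains growth and represses SMAD7 (Entrez gene 7071, chromosome 8 from 102648784 to 102655725). It had 33.8 FPKM in control against 15.9 in FZR1 ko, a ratio of 0.469. Its fall of 18.0 FPKM was the largest difference in FPKM among the 10 genes. KLF11, or TIEG2, is its closest relative and is known from pancreatic cells as well as TGF-beta signalling. KLF11 had 20.3 FPKM in control against 9.74 in FZR1 ko, a ratio of 0.481. KLF10 stood at 1.67 times KLF11 in control and at 1.63 times in FZR1 ko, so both of these genes were lower by nearly the same factor. KLF13, which is known from T cells and the heart, had 10.4 FPKM in control against 11.8 in FZR1 ko, a log2 ratio of 0.17. KLF13 (Entrez gene 51621, chromosome 15 from 31326835 to 31435665) thus did not share the lower level of KLF10 and KLF11. KLF9, a glucocorticoid- and thyroid hormone-responsive gene (Entrez gene 687, chromosome 9 from 70384604 to 70414657), had 0.15 FPKM in control against 0.03 in FZR1 ko. Rounding to 2 decimals alone allows a ratio from 0.161 to 0.241 for KLF9, and at such levels a few reads may make the difference.

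Among the activators, KLF6 showed the lowest log2 ratio. KLF6, a widely expressed gene induced by injury and stress (Entrez gene 1316, chromosome 10 from 3775996 to 3785209), fell from 9.02 to 3.55 FPKM in FZR1 ko, a ratio of 0.394. Its relative KLF7, best known from neurons (Entrez gene 8609, chromosome 2 from 207074137 to 207173851), went the other way, with 1.95 FPKM in control against 2.39 in FZR1 ko. KLF6 was at 4.63 times the level of KLF7 in control and at 1.49 times in FZR1 ko.

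KLF2, the flow-responsive gene of endothelium and a gene of lymphocyte quiescence (Entrez gene 10365, chromosome 19 from 16324826 to 16328685), had 2.97 FPKM in control against 1.19 in FZR1 ko. Its ratio of 0.401 was close to that of KLF6, but the low level brought its log2 ratio with the pseudocount to -0.86. KLF4, a gene of epithelial differentiation and a reprogramming factor (Entrez gene 9314, chromosome 9 from 107484852 to 107489769), had 16.6 FPKM in control against 8.94 in FZR1 ko. The ratio of KLF4 was 0.539, the nearest to 1 of the 6 lower genes. KLF5, which often acts against KLF4 in epithelia (Entrez gene 688, chromosome 13 from 73054976 to 73077538), had 77.4 FPKM in control against 72.9 in FZR1 ko, a ratio of 0.942. KLF4 stood at 0.214 times KLF5 in control and at 0.123 times in FZR1 ko.

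**Figure D3:**
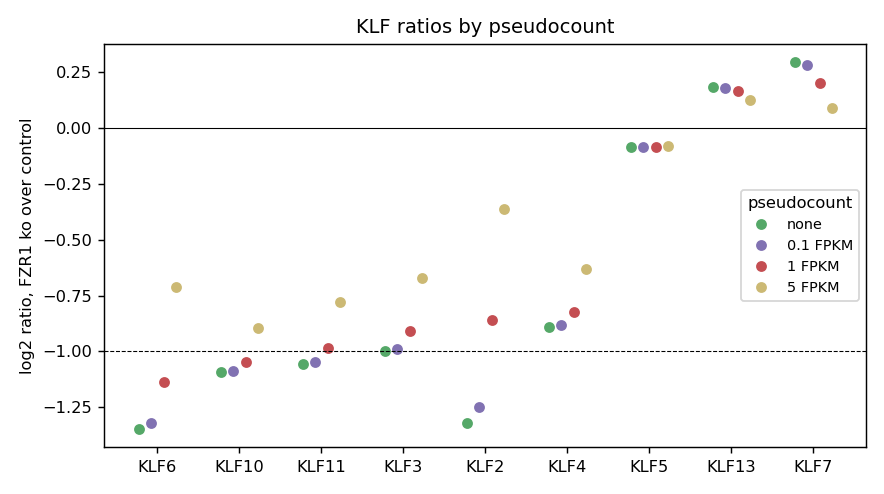
Log2 ratio of FZR1 ko over control for the 9 KLF genes kept, with no pseudocount and with pseudocounts of 0.1, 1 and 5 FPKM, and a dashed line at a 2-fold lower level. The direction of each of the 9 genes is the same at every pseudocount, while KLF2 moves from -1.32 to -0.36 and KLF5 stays near -0.09.

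The order of the levels changed with these differences. FPKM is scaled by transcript length, so the levels of different genes can be set side by side. In control KLF5 was followed by KLF10, KLF11, KLF4, KLF3, KLF13, KLF6, KLF2, KLF7 and KLF9. In FZR1 ko KLF13 stood at place 3 instead of place 6, above KLF11, KLF4 and KLF3, and KLF7 stood above KLF2. Without replicates it is not known which neighbours in either order differ beyond their spread. The 10 genes summed to 187 FPKM in control against 134 in FZR1 ko, a ratio of 0.714. KLF5 alone made up 41.4% of this sum in control cells and 54.5% in FZR1 ko cells. Without KLF5 the sum went from 110 to 60.8 FPKM, a ratio of 0.554.

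**Figure D4:**
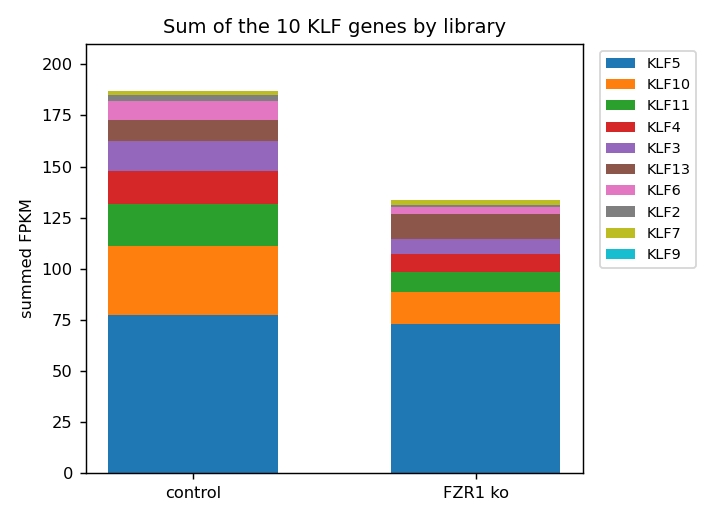
Summed FPKM of the 10 KLF genes in each library, stacked by gene. The KLF5 block is nearly as high in FZR1 ko as in control, and the shorter bar (134 against 187 FPKM) comes with thinner KLF10, KLF11, KLF4 and KLF3 blocks.

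The region before the transcription start is shown for KLF genes on both sides of this difference. The RefSeq promoter table of GRCh38.p14, the hg38 build named by the study's methods, held 8 of the 10 genes, and KLF3 and KLF10 had no entry. For genes with several starts, the start nearest to that of the main GENCODE 44 transcript was taken. KLF2 (chr19:16324576-16324825) and KLF4 (chr9:107489770-107490019, minus strand) were among the 6 genes at least 1.5-fold lower. KLF5 (chr13:73058755-73059004), with a log2 ratio of -0.09, and KLF13 (chr15:31326585-31326834), with 0.17, were not. The KLF5 window lies within the gene as RefSeq bounds it, after an earlier start. The 250 bases upstream of each start contain no GENCODE exon and are given 5′ to 3′ on the strand of the gene. Capitals mark matches on either strand to the GC box GGGCGG, the CACCC box, the CCAAT box, the short site TGACG of a cAMP response element (CRE), or the MEF2 site.
KLF2: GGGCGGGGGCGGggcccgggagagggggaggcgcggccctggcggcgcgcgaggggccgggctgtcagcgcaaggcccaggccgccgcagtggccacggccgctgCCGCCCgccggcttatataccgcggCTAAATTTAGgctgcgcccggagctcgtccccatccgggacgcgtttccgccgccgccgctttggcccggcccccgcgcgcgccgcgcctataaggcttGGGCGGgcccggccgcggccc
KLF4: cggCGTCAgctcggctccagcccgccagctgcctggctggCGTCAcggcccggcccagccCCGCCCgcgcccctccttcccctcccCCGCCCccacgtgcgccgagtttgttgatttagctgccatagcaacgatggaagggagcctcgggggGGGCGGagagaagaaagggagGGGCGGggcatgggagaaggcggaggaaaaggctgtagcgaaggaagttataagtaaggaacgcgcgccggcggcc
KLF5: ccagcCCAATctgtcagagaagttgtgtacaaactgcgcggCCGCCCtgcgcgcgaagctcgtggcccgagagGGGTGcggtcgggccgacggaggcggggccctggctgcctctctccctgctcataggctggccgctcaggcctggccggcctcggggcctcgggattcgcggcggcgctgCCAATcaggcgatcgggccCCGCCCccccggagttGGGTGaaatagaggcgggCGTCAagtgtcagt
KLF13: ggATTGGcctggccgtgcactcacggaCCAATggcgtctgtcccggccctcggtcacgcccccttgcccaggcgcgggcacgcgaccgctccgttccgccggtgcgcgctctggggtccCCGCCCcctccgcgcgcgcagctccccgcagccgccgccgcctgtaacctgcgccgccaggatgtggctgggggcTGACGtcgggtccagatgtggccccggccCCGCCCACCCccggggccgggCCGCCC

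The share of G and C in these windows was 80.0% for KLF2, 69.2% for KLF4, 70.8% for KLF5 and 78.8% for KLF13, where the median of all 35116 promoter windows of this length was 58.0%. In the windows not shown it was 78.8% for KLF11, 72.4% for KLF6, 58.0% for KLF7 and 32.4% for KLF9. Of the 8 windows counted, those of KLF7 (all but 1 base), KLF11 (180 bases) and KLF6 (72 bases) overlap GENCODE exons, and the KLF11 start used lies 279 bases from the GENCODE start. The GC box, to which KLF and SP factors bind, occurred in 6 of the 8 KLF windows and in 42.6% of all windows. KLF2 and KLF4 had 4 matches each, KLF13 had 3 and KLF5 had 2, overlapping matches included. The CACCC box was found in 3 of the 8 (KLF5, KLF7 and KLF13) and in 54.7% of all windows, and the CCAAT box in 4 of the 8 and in 32.0%. The KLF2 window held the only match to the MEF2 site, which 0.52% of all windows have. MEF2 factors are the known link from the kinase ERK5 to KLF2. The short CRE site was found for KLF4, KLF5 and KLF13 and in 21.2% of all windows. The full CRE TGACGTCA, which contains the short site on both strands, the AP-1 site TGACTCA and the CArG box of serum response factor had no match in the 8 windows. They occurred in 1.65%, 4.20% and 1.16% of all windows. A match is a run of letters and not a measured binding site, and a window without a match says nothing of the factor.

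KLF11 (Entrez gene 8462, chromosome 2 from 10043550 to 10054836) shares its upstream region with KLF11-DT, a noncoding gene named as its divergent transcript. KLF11-DT, named here after its values were seen, had 5.22 FPKM in control against 1.96 in FZR1 ko, a ratio of 0.375 beside 0.481 for KLF11. Both genes of this locus were thus lower in FZR1 ko, with log2 ratios of -1.07 and -0.99. The annotated genes lie 148 bases apart, and this gap (chr2:10043402-10043549, plus strand of hg38) holds no GENCODE exon. It is shown because it separates the pair, with the same motifs in capitals.
KLF11 gap: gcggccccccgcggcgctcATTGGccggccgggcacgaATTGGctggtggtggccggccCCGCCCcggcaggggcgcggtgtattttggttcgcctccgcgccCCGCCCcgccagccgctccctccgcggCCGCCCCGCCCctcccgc

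The gap is 81.8% G and C, with 4 matches to the GC box and 2 to the CCAAT box. It has no match to the CACCC box, the short CRE site, the AP-1 site, the CArG box or the MEF2 site.

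The transcripts of the KLF genes were also compared by the AUUUA pentamer, the core of elements that mark short-lived mRNAs. In the main GENCODE 44 transcript, written as ATTTA, the 3′ UTR of KLF5 had 3.03 per kilobase, that of KLF7 2.83 and that of KLF11 2.58. KLF13 had the fewest at 0.893 per kilobase, and KLF6 had 1.69. The median over 10988 protein-coding genes kept with a 3′ UTR of at least 100 bases was 1.72, so 8 of the 10 KLF genes were above it. The 6 genes at least 1.5-fold lower lay between 1.69 and 2.58, with KLF5 and KLF7 above them and KLF13 below, and KLF9 (2.52) lay within this range.

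The remaining KLF genes were mostly silent. Of KLF1, KLF8, KLF12, KLF14, KLF15, KLF16 and KLF17, only KLF16 passed 1 FPKM. KLF16, a SIN3A-binding relative of KLF9 and KLF13, had 15.4 FPKM in control against 15.8 in FZR1 ko, a log2 ratio of 0.03. KLF1, KLF14, KLF15 and KLF17 were at most 0.12 FPKM in either library. Of the 9 SP genes, 6 passed the filter, and their median log2 ratio was -0.16. SP1, the widely expressed founder of the family, had 23.8 and 24.1 FPKM, SP2 had 12.0 and 10.3 FPKM, SP3 had 10.2 and 9.31 FPKM and SP4 had 4.06 and 2.90 FPKM. SP6, known from teeth and hair, fell from 21.4 to 5.81 FPKM in FZR1 ko, and its log2 ratio of -1.72 was lower than that of each KLF gene. SP5 had 1.39 and 2.04 FPKM, and SP7, SP8 and SP9 were under 1 FPKM in both libraries.

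The partners of the KLF proteins were looked at as lists. Of 10 corepressors and coactivators, 9 were kept and all 9 were higher in FZR1 ko. Of all 13554 genes kept, 6726 were higher. The median log2 ratio of the 9 partners was 0.38, opposite in sign to that of the KLF genes. At least 1.5-fold higher were 3 of the 9, against 18.0% of all genes. In this list only CTBP2, a corepressor partner of KLF3, passed the 2-fold threshold, from 4.94 to 13.1 FPKM in FZR1 ko (1.25). Of 10 ubiquitin ligases and deubiquitinases that act on KLF proteins or related factors, 9 were kept, 7 were higher and 2 lower, with a median of 0.36. SIAH1, a ligase and known p53 target, was the member at least 2-fold lower, from 22.1 to 7.14 FPKM (-1.50).

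The transcripts of pathways known to induce KLF genes were mixed, and the activity of these pathways was not measured. In the pathway from ERK5 to MEF2, 6 of 7 genes were kept, 3 lower and 3 higher, with a median of 0.11 that turned to -0.14 when at least 1 FPKM was asked for in both libraries. MAP2K5, the kinase of ERK5, rose from 0.50 to 2.99 FPKM in FZR1 ko (1.41), while MAPK7, which encodes ERK5 and is named after its values were seen, had 21.6 and 11.1 FPKM (-0.90). Of 11 genes of TGF-beta signalling, 7 were lower and 4 higher, with a median of -0.16. In this list TGFB2 fell from 4.54 to 1.26 FPKM (-1.29) and the receptor gene TGFBR1 from 12.3 to 4.53 FPKM (-1.27), and none was at least 2-fold higher. Of 8 glucocorticoid receptor and target genes, 7 were kept, 5 lower and 2 higher, with a median of -0.52. FKBP5 rose from 7.58 to 16.7 FPKM (1.05) and ERRFI1 fell from 37.9 to 9.74 FPKM (-1.85).

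Genes reported as KLF targets went both ways. The list does not separate targets that KLF proteins raise from those they lower, so its counts and median have no expected direction. Some of its genes, ATF3 and TGFBR1 among them, also belong to other lists given here. Of the 30 listed, 23 were kept, with 14 lower, 9 higher and a median of -0.29. This median was -0.06 with no filter on low values, -0.49 with at least 1 FPKM in both libraries and -0.52 when the pseudocount was left out as well. At least 2-fold lower were 4 (CDKN1A, ATF3, PLAU and TGFBR1), and at least 2-fold higher were 5 (IGF1R, EGFR, FGFBP1, MAOB and LAMA3), named after their values were seen. The largest differences were those of CDKN1A (-2.03), also a p53 target, ATF3 (-2.01), the protease gene PLAU (-1.84) and IGF1R (1.53). PLAU fell from 17.9 to 4.25 FPKM in FZR1 ko, and IGF1R rose from 0.99 to 4.75 FPKM.

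The KLF genes were set beside other genes of the early response. Of the AP-1 subunits and ATF3, all 8 were kept, 6 were at least 2-fold lower and none at least 2-fold higher, with a median of -1.66. FOS (-2.57), FOSB (-2.36), JUN (-2.19) and ATF3 (-2.01) had the lowest ratios. In the other direction FOSL2 had 31.4 and 48.8 FPKM (0.62), and JUND was near its control level with 55.03 and 53.1 FPKM (-0.05), both named after their values were seen. Of the EGR, NR4A and IER genes, 7 of 10 were kept, all 7 were lower and 6 were at least 2-fold lower, with a median of -1.07. EGR1 (-2.68), NR4A2 (-1.95), IER3 (-1.85) and IER5 (-1.07) led this list. The median of the KLF genes, -0.86, was nearer to 0 than those of both lists, and this difference was not tested.

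**Figure D5:**
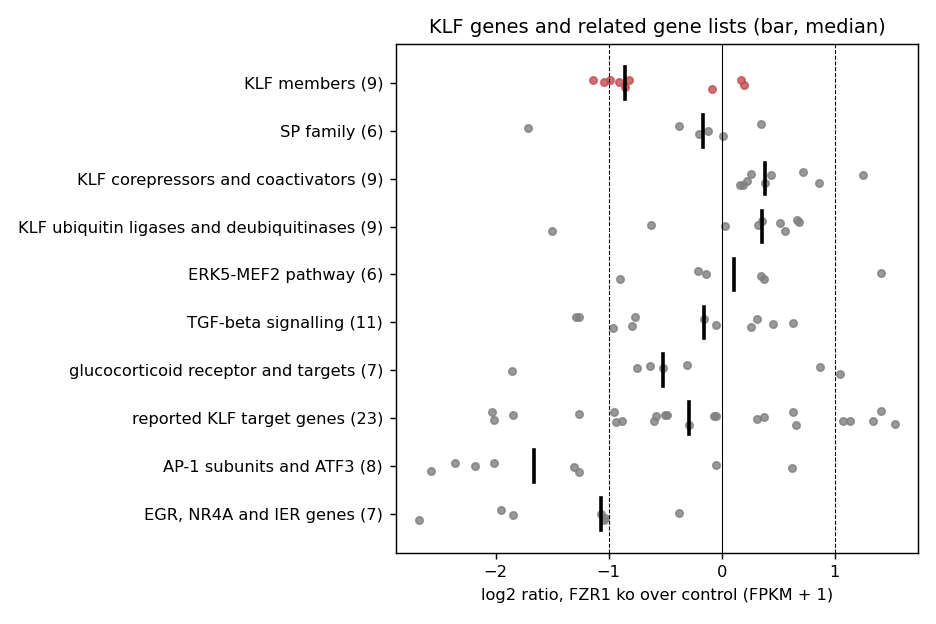
Log2 ratio of FZR1 ko over control for each gene kept of the KLF genes (red) and 9 related lists (grey), with the number kept in brackets, a black bar at each median and dashed lines at a 2-fold difference. The KLF genes split into 6 between -1.14 and -0.82 and 3 near 0, while the corepressors and coactivators all lie above 0.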

How the data were processed

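Cisplatin-treated control and FZR1 ko cells gave 1 library each, made from total RNA and sequenced on a BGISEQ-500 platform. The authors quantified reads aligned to hg38 transcripts with RSEM and deposited FPKM values per Entrez gene, to 2 decimals. The submitters' processing notes also name Trimmomatic 0.36, HISAT2 2.1.0 and Bowtie2 2.2.5. The annotation, the fragment length and the strand of the library are not given in the sources used here. Of 24663 entries, 1630 had no value, and 99.53% of the others matched a symbol in the RefSeq table.

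Ratios used FPKM + 1, and genes entered when either library reached 1 FPKM. A 2-fold difference was counted. The computation was tested on simulated data. The rule named the 10 KLF genes, FZR1, the KLF and SP families, genes that overlap a KLF gene, and of every list up to 4 genes past 2-fold or else the largest 2. Cell type markers were given beside it, and KLF11-DT, MAPK7, FOSL2, JUND and some targets were picked with their values known. The members and lists, which came from general knowledge, were chosen with earlier results of these data known. Alternatives were pseudocounts of 0.1 and 5 FPKM, a looser and a stricter filter, centring, rescaling, a restriction to protein-coding genes and a 4-fold threshold. Python 3.11.15 was used with pandas 2.3.3, numpy 2.4.6 and matplotlib 3.10.9.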

Additional observations from a re-analysis of the deposited data

How the results depend on the processing

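No paired analysis was possible because control and FZR1 ko have a lone library each and nothing was tested, and no replicate could be left out. The direction of the 9 KLF genes kept was the same under all alternatives run. Their median log2 ratio ranged from -0.999 to -0.63. The number of KLF genes at least 2-fold lower, 2 at first (KLF6 and KLF10), was 4 with a pseudocount of 0.1 FPKM and 4 with none and at least 1 FPKM in both libraries (KLF2 and KLF11 added each time), 0 with a pseudocount of 5 FPKM, 0 at 4-fold and 6 at 1.5-fold. The number at least 2-fold higher was 0 under each of them. Of all genes, 911 were lower and 919 higher at first. With a pseudocount of 0.1 FPKM 1358 were lower and 1460 higher, and with one of 5 FPKM 270 were lower and 183 higher. At 4-fold the counts were 89 and 61, and at 1.5-fold 2387 and 2440. With no pseudocount and at least 1 FPKM in both libraries they were 872 and 979, of 12081 genes in place of 13554. Raising the pseudocount or the threshold lowers such counts by construction. The luminal list had a median of -0.032 with no filter in place of 0.27, and the list from ERK5 to MEF2 one of -0.14 with at least 1 FPKM in both libraries and -0.16 with no pseudocount as well, in place of 0.11, since both filters change which genes enter. The 1.5-fold threshold and the plain ratio were chosen after seeing the data. The unknown depth limits genes with few reads, and KLF9, KLF2 and KLF7 had the lowest FPKM of the 10 genes in both libraries.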

Other observations

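Among the marker genes, the cadherins CDH2 and CDH5 differed in opposite directions, while CDH1, which encodes E-cadherin, had 0.69 and 0.62 FPKM. CDH2, which encodes N-cadherin, had 2.97 FPKM in control against 15.3 in FZR1 ko, with a log2 ratio of 2.04. Of the 6 mesenchymal and basal markers kept, CDH2 and ZEB1 (0.51) were higher. The other 4 were lower, SNAI2 (-0.73), ZEB2 (-0.23), VIM (-0.09) and FN1 (-0.09), the last 2 only slightly. The median was -0.09. CDH5, which encodes the cadherin of endothelial cells, had 3.64 FPKM in control against 0.33 in FZR1 ko (-1.80), while PECAM1, another endothelial gene, had 0.30 and 0.32 FPKM. EPCAM, an epithelial adhesion gene, had 3.90 and 11.5 FPKM (1.35). These genes were named after their values were seen.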
